A study of Mus musculus with 4 samples.

Results

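The genes described here are the 50 that build, modify and supply glycosaminoglycans, the sugar chains that give cartilage proteoglycans their charge. They were taken by symbol from the authors' own gene annotation of peaks of 5-hydroxymethylcytosine (5hmC), a base that TET enzymes produce by oxidising methylated cytosine. The members carried 200 of the 56695 chondrocyte peaks and 4 of the 1050 chondroprogenitor peaks, and they are 50 of 21900 protein-coding genes in the gene table. Of the peaks in all, 34181 at day 20 and 526 at day 0 had a gene symbol.

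The cells were ATDC5, an established mouse chondrogenic line. There were 4 libraries of genomic DNA captured for 5hmC, 2 from chondrocytes (1 labelled day 19 and 1 labelled day 20) grown with insulin, transferrin and selenite, and 2 from chondroprogenitors at day 0. The basal medium with serum, glutamine and ascorbic acid is described in the same words for both stages, and all libraries come from 1 cell line with no genetic change named. The deposited data were 1 peak list per stage, made from merged samples, so there is no spread between replicates to set a difference against, and stages and steps are compared without a test. The lists hold positions of peaks with a 10-fold enrichment. The labels and headers leave unstated the baseline of that enrichment, the read depth, and whether the day 19 library entered the day 20 list. The lists differ greatly in length, and their median peak widths are 591 bp at day 20 and 134 bp at day 0, so a peak number is not an amount of 5hmC. Expression was not measured in them, so the chondrocyte label could not be checked against marker levels.

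Chondroitin, dermatan and heparan sulphate chains start with the same short linker sugar on a core protein. Glycosyltransferases then lengthen the chain, and sulphotransferases and epimerases modify it with sulphate that the cell takes up and activates as PAPS, the universal sulphate donor. Hyaluronan is made at the cell membrane without a core protein or sulphate. In cartilage, chondroitin sulphate on aggrecan holds water, and heparan sulphate binds growth factors such as FGFs and hedgehog proteins.

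In chondrocytes at day 20, 36 of the 50 members carried at least 1 peak (72.0%, Wilson 95% interval 58.3 to 82.5%), against 43.8% of all protein-coding genes. In chondroprogenitors at day 0, 3 of the 50 did (6.0%, 2.06 to 16.2%), against 1.81% of all protein-coding genes. Counted by overlap with the gene itself, 35 members had a day 20 peak, against 40.5%, and with 5 kb added on both sides 39 did, against 50.8%. Among peaks at least as wide as their list's median, 24 members had a day 20 peak, against 28.1%, and among the 1050 widest day 20 peaks 3 did, against 2.46%. The 3 with a day 0 peak, Chst11, Ext1 and Sulf2, also had day 20 peaks. At day 0, 9.24% of genes of 200 to 300 kb, the class of Chst11 and Ext1, had a peak. In genes of 50 to 100 kb, the class of Sulf2, 2.50% did. Intervals cover counting error only. The median member is 54.3 kb long and the median protein-coding gene 17.1 kb, and the share of genes with a day 20 peak was higher in each longer class up to 200 to 300 kb, at 84.8%, and 71.3% in genes of 300 kb or longer.

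**Figure D1:**
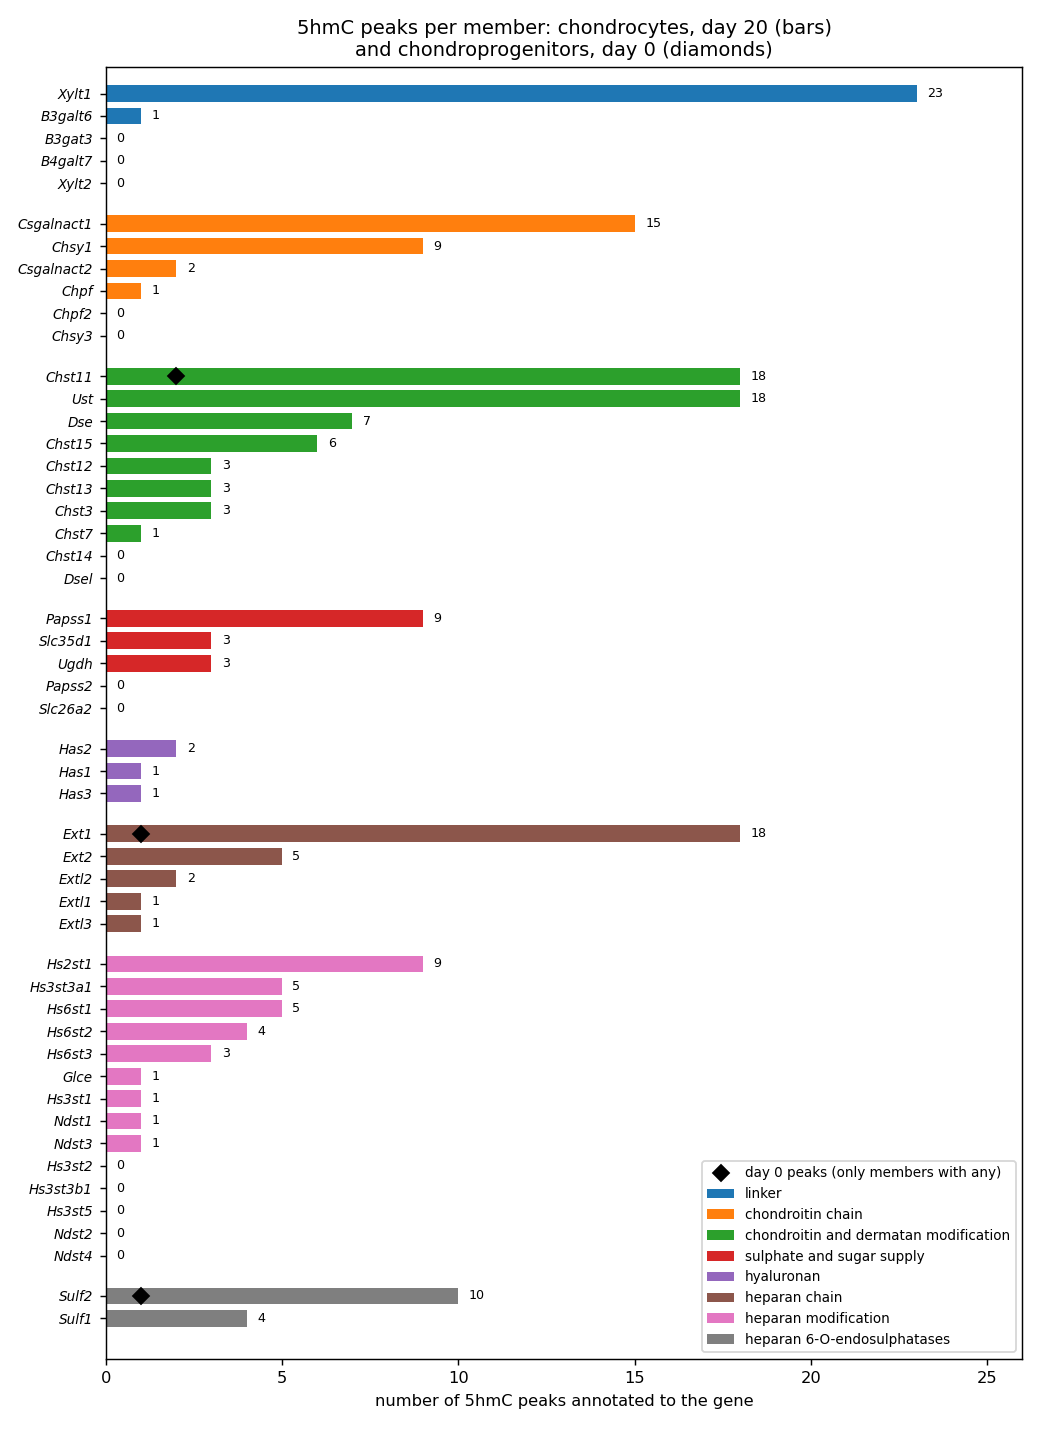
Number of 5hmC peaks annotated to each of the 50 members, grouped by step of the pathway and sorted within each step. Bars are chondrocytes at day 20 and diamonds chondroprogenitors at day 0. Xylt1 leads with 23 day 20 peaks, 14 members have none, and Chst11, Ext1 and Sulf2 alone have day 0 peaks.

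Promoters held few of these peaks, and the exceptions are shown as sequence. The promoter windows are RefSeq's (GRCm38.p6), 300 bases each, from 250 before to 50 after an annotated start. They were found for 39 of the 50 members, in 48 windows. A day 20 peak overlapped 2 of the 48 (4.17%), against 3.74% of all windows of protein-coding genes, a share near the background. No day 0 peak overlapped a member's window, against 0.0235% of all windows. The windows below are those 2, of Papss1 and Chst15, with the other Papss1 window for contrast. They are written 5′ to 3′ on the gene's strand, with each CpG, the dinucleotide where most mammalian 5hmC lies, in capitals.
Papss1, first start, chr3:131564518-131564817, plus strand, no peak: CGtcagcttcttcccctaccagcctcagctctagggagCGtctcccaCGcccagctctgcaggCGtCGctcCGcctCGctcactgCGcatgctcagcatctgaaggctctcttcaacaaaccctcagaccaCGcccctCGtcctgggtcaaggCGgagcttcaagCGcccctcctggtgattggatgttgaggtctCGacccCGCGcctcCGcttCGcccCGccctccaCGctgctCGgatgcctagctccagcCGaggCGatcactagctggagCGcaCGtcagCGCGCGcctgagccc
Papss1, second start, chr3:131565782-131566081, plus strand, covered by a day 20 peak: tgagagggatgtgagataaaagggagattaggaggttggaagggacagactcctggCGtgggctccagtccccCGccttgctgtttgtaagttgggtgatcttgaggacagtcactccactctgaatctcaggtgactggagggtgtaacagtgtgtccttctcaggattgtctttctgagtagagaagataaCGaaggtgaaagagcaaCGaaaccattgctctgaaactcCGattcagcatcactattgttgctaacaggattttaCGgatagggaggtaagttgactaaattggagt
Chst15, first start, chr7:132317179-132317478, minus strand, overlapped by a day 20 peak: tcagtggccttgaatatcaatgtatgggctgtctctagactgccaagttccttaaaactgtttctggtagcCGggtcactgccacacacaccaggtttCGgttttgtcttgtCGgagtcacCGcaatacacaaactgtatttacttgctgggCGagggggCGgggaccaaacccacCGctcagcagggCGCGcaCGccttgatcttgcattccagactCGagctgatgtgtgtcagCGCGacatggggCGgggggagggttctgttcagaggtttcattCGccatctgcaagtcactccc

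The Papss1 windows differ in CpG content. The window at the second start has 6 CpG and lies wholly inside a 432 bp day 20 peak (chromosome 3, 131565692 to 131566123). The window at the first start has 27 CpG, and the nearest peak begins 875 bp from it. As many CpG as in the first-start window are found in 20.7% of protein-coding windows, and as many as in the second in 67.7%.

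The Chst15 peak barely enters its window. It covers bases 1 to 31 of the sequence above, which hold 0 of the 15 CpG, and the authors annotated it to Gm10584 and not to Chst15. CpG was counted as the letters CG, which read the same on both strands. Over all protein-coding windows, a day 20 peak overlapped 2.20% of those with 20 or more CpG and 4.61% of those with fewer. Split at 10 CpG the shares were 2.85% and 4.92%. Split at 5 CpG the order was the opposite, at 3.87% with 5 or more and 3.41% with fewer. Of the 30 member windows with 20 or more CpG, 0 were overlapped.

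In 2 of the 39 members a peak overlapped a window (5.13%), against 4.20% of protein-coding genes with a window, and more members had a peak just outside. Among the 39 members, the nearest day 20 peak lay 1 to 1000 bp from a window in 8 (20.5%), against 9.72% of those genes. It lay beyond 1000 and up to 2500 bp away in another 8 (20.5%), against 8.08%. With the 2 overlapped genes, 18 of 39 had a peak within 2500 bp of a window (46.2%), against 22.0%. These shares were not matched for gene length. All members together also carried a day 20 peak more often than all protein-coding genes, 72.0% against 43.8%. Peaks annotated to another gene were counted too, such as that near Ndst2, annotated to Camk2g. The closest peak outside a window was at Ust, the uronyl 2-O-sulphotransferase, where a 520 bp peak began 32 bp upstream of the window. Next came Slc35d1 at 399 bp, Dse at 465 bp, Hs6st2 at 679 bp, Ext2 at 708 bp, Chst3 at 772 bp and Hs2st1 at 918 bp.

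Most member peaks with a start to measure from were deep in the genes. Of the 135 day 20 peaks on members with an annotated start, 113 lay more than 5 kb downstream of the nearest start (83.7%, 76.6 to 89.0%), against 72.0% of peaks on other protein-coding genes. Within 1 kb of a start lay 4 (2.96%, 1.16 to 7.37%), against 6.33%. These shares were not matched for gene length, and the median member is 54.3 kb long, against 17.1 kb for protein-coding genes. Peaks on members without an annotated start, among them Xylt1, Ext1 and Csgalnact1, are not in the 135. Genes of 20 kb or longer with an annotated start were divided 5′ to 3′ into 4 equal parts. Among members that left 23 genes with peaks, again without Xylt1, Ext1 and Csgalnact1. The first held 38 of 118 member peaks (32.2%, 24.4 to 41.1%), against 26.3% for other genes, a value inside that interval. The last held 30 (25.4%), against 24.1%.

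The linker step had a peak-rich first enzyme and little else. Xylt1, the xylosyltransferase that attaches the first sugar to the core protein, carried 23 day 20 peaks and no day 0 peak in 287 kb on chromosome 7 (117380979 to 117667630). They were 356 to 1297 bp wide. All but 3 lay in the lower-coordinate part of the gene, below a gap of 41.6 kb from 117543468 to 117585040, and 1 lay 4774 bp outside the gene. Xylt2, the other xylosyltransferase, had 0 peaks at both stages in 13.7 kb, and its nearest day 20 peak was 32.2 kb away. Among all protein-coding genes, Xylt1 ranked 90 by number of day 20 peaks, and 0.475% had as many. By density, at 8.02 per 100 kb, it ranked 3700, and 16.9% were as dense.

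The 3 enzymes that complete the linker carried almost no peaks. B3galt6, the second galactosyltransferase, had 1 day 20 peak of 503 bp, 306 bp outside its 3.21 kb gene. B4galt7, the first galactosyltransferase, and B3gat3, which adds the glucuronic acid, had 0. All are short, and of genes under 10 kb and of 10 to 20 kb only 18.6% and 40.2% had a day 20 peak. B3gat3 had 7 day 20 peaks within 50 kb, the nearest 1.44 kb away, while B4galt7 had 0 within 50 kb.

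Chondroitin chain synthesis was split within gene pairs. Csgalnact1, which starts and extends chondroitin, carried 15 day 20 peaks in 379 kb, and Csgalnact2 carried 2 in 31.7 kb. Per 100 kb of gene the order was the opposite, with 3.96 peaks in Csgalnact1 and 6.31 in Csgalnact2. Chsy1, a chondroitin synthase, carried 9, of which 1 lay 2379 bp outside its 64.3 kb. That number of day 20 peaks was reached by 3.64% of protein-coding genes, and its density, 14.0 per 100 kb, by 7.47%.

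The remaining chain genes held 1 day 20 peak or 0. Chsy3, a second chondroitin synthase, carried 0 in 236 kb on chromosome 18, although 84.8% of genes of 200 to 300 kb had a day 20 peak. Its nearest peak was 682 kb away. Of the polymerising factors, Chpf had 1 peak of 441 bp in 4.90 kb, or 20.4 per 100 kb. Chpf2 had 0 in 7.66 kb, with the nearest 2.33 kb away. Both are shorter than 10 kb, and of such genes 18.6% had a day 20 peak. No chain gene had a day 0 row, against 1.81% of all protein-coding genes with one. The only day 0 peak within 50 kb of a chain gene lay 43.9 kb from Chsy1, without a gene symbol and shared with day 20.

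Most genes that sulphate or epimerise chondroitin and dermatan had peaks. Of 10 members, 8 carried a day 20 peak (80.0%, 49.0 to 94.3%), against 43.8% of all protein-coding genes, with 59 peaks in all. The interval overlaps those of the other steps. A day 0 peak was carried by 1 of the 10, Chst11, against 1.81% of all protein-coding genes. In genes of 200 to 300 kb, its length class, 9.24% had one. Chst11, the main chondroitin 4-O-sulphotransferase, is 211 kb long on chromosome 10 (82984440 to 83195904). It held 18 day 20 peaks, 1 of them 266 bp outside the gene, and 2 day 0 peaks. The day 20 peaks ran nearly the length of the gene, with no gap over 23.0 kb. The day 0 peaks were 138 bp (83104291 to 83104428) and 223 bp (83181833 to 83182055) wide and lay 3878 and 1254 bp from the nearest day 20 peak, so neither was shared. The second stood beside the widest day 20 peak of the gene, 1901 bp from 83183309 to 83185209.

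Ust also held 18 day 20 peaks, 1 of them 282 bp outside its 314 kb, and no day 0 peak. Dse, the epimerase that turns chondroitin into dermatan sulphate, held 7, of which 1 lay 6167 bp outside its 56.9 kb. Dsel, its relative, held 0 in 6.35 kb and lay 4266 kb from the nearest day 20 peak, as far as 1.44% of protein-coding genes. Chst15, which adds a second sulphate to 4-sulphated chondroitin, held 6 by annotation and 7 by position.

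The smaller sulphotransferase genes differed too. Chst12 and Chst13, the other chondroitin 4-O-sulphotransferases, are 19.7 and 16.8 kb long. They held 3 day 20 peaks each by annotation, which is 15.3 and 17.8 per 100 kb. Of the peaks of Chst13, 1 lay 2673 bp outside the gene. Chst3, the main 6-O-sulphotransferase, held 3 in 40.6 kb, and Chst7, a second 6-O-sulphotransferase on the X chromosome, held 1 in 41.0 kb. On the X, 16.8% of protein-coding genes had a day 20 peak. Chst14, the dermatan 4-O-sulphotransferase, held 0 in 2.09 kb, with its nearest peak 11.4 kb away.

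Sulphate and sugar supply was uneven between the PAPS synthases. Papss1 carried 9 day 20 peaks in 78.9 kb, of which 8 lay in the gene and 1 was 696 bp past its end. Papss2, whose loss causes short stature in mice and people, carried 0 in 71.5 kb, with the nearest 27.7 kb away. Of genes of 50 to 100 kb, 71.7% had a day 20 peak, and the median had 2. Slc26a2, the sulphate transporter mutated in diastrophic dysplasia, carried 0 in 14.7 kb, and 5 peaks lay within 50 kb. Of genes of 10 to 20 kb, 40.2% had a day 20 peak. Of all protein-coding genes, 24.4% had none in the gene or within 50 kb. Papss2 and Slc26a2 were both without a peak by annotation and by position.

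The sugar suppliers each held 3 day 20 peaks. Slc35d1, which carries nucleotide sugars into the endoplasmic reticulum, held them in 51.6 kb. Ugdh, which makes UDP-glucuronic acid, held them at 13.3 per 100 kb, the highest density of the step, but only 1 of the 3 lay in its 22.6 kb. The others were 1244 and 2288 bp beyond the end that carries its start.

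All 3 hyaluronan synthases had day 20 peaks and none had a day 0 peak, against 43.8% and 1.81% of all protein-coding genes with one. Has2, the synthase that mouse embryos need, had 2, of 556 and 652 bp, in 28.9 kb. Has1 had 1 of 466 bp in 21.9 kb and Has3 had 1 of 565 bp in 12.7 kb. These are low numbers in short genes, and of genes of 20 to 50 kb 54.9% had a day 20 peak. In genes of 10 to 20 kb, the class of Has3, 40.2% did.

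All 5 heparan chain genes had day 20 peaks (100%, 56.6 to 100%), against 43.8% of all protein-coding genes, with 27 in all. Ext1, Ext2 and Extl3 fall in length classes where 84.8%, 81.7% and 71.7% of genes had a day 20 peak. Ext1, a subunit of the heparan polymerase whose loss causes cartilage-capped exostoses, held 18 day 20 peaks and 1 day 0 peak in 278 kb on chromosome 15 (53068261 to 53346183). The day 0 peak, 117 bp from 53130776 to 53130892, lay inside the widest day 20 peak of the gene, 1483 bp from 53130387 to 53131869. A stretch of 72.8 kb from 53269175 to 53342012 had no day 20 peak. Ext2, the partner subunit, held 5 in 127 kb, or 3.94 per 100 kb, against 6.48 per 100 kb in Ext1. Extl2 held 2 in 21.6 kb, at 9.27 per 100 kb the densest of the step, Extl1 held 1, and Extl3, which starts heparan chains, held 1 of 301 bp in 97.8 kb.

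**Figure D2:**
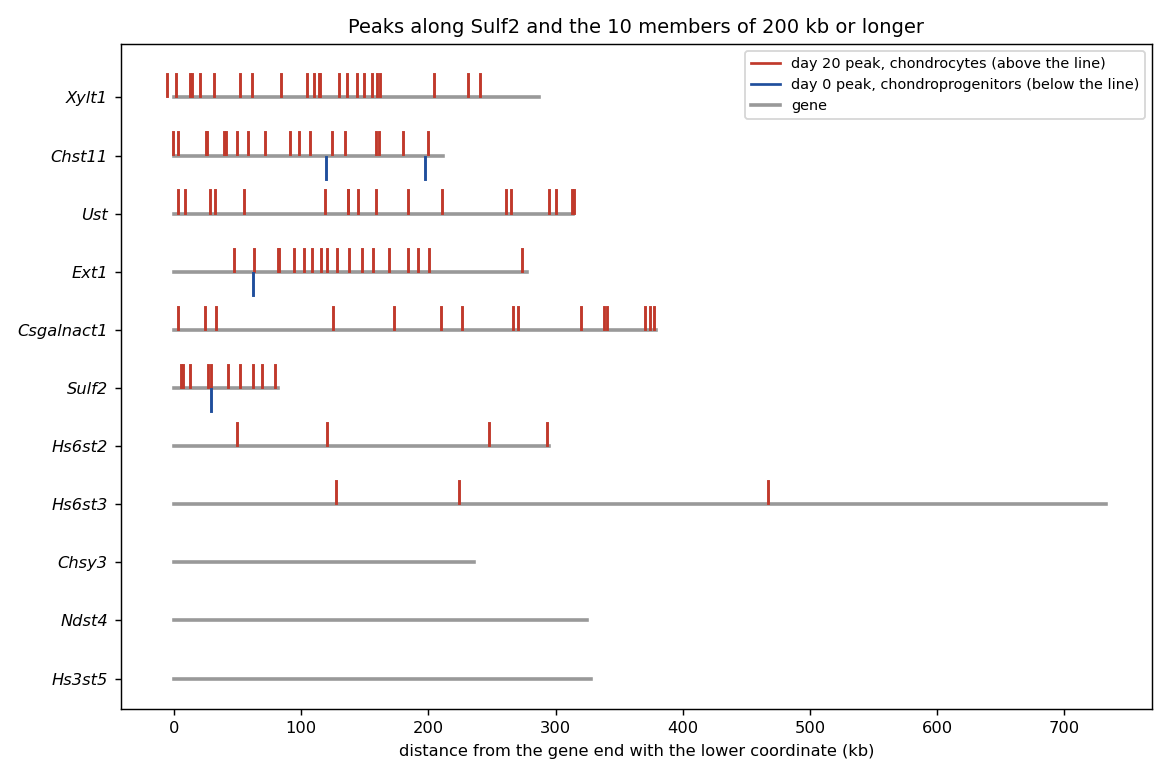
Position of peaks along Sulf2 and the 10 members of 200 kb or longer, as distance in kb from the gene end with the lower coordinate. Red ticks above each line are day 20 peaks and blue ticks below are day 0 peaks. Xylt1, Chst11, Ust, Ext1 and Csgalnact1 hold 15 to 23 day 20 peaks, whereas Chsy3, Ndst4 and Hs3st5 hold none.

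Heparan modification was the sparsest step for its length. Of 14 members, 9 had a day 20 peak (64.3%, 38.8 to 83.7%), an interval that includes the 43.8% of all protein-coding genes. None had a day 0 peak, against 1.81% of all protein-coding genes. They held 30 peaks in 2431 kb, which is 1.23 per 100 kb (Poisson 95% interval 0.833 to 1.76). The 10 chondroitin and dermatan modifiers held 59 in 797 kb, which is 7.41 per 100 kb (5.64 to 9.55). All protein-coding genes together held 3.07 per 100 kb, so the intervals of both modification steps lie on opposite sides of that value and do not overlap. These intervals take each peak as independent, but peaks of 1 gene share their source. Chst11 and Ust held 18 each of the 59. The intervals are therefore too narrow as a statement about genes. The chain steps ran the other way, at 5.00 (3.29 to 7.27) for heparan and 3.73 (2.46 to 5.43) for chondroitin, with overlapping intervals. Intervals of the linker (4.79 to 11.1), supply (3.51 to 10.3) and heparan chain steps also lay above 3.07. Without the longest gene of each, these intervals included 3.07. The linker without Xylt1 had 0.0738 to 16.2. Supply without Papss1 had 1.37 to 8.14, and the heparan chain step without Ext1 had 1.57 to 6.51.

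The heparan modifiers were also less dense than the chondroitin and dermatan modifiers without the longest gene of each. Hs6st3, the longest member, had 3 day 20 peaks in 732 kb. Without it the heparan modifiers held 1.59 per 100 kb (1.05 to 2.31), and without Ust, their longest gene, the chondroitin and dermatan modifiers held 8.49 (6.10 to 11.5). The median over members was 0.981 per 100 kb for heparan and 7.11 for chondroitin and dermatan modification. Peak density over all protein-coding genes was also lower in the longest, at 1.69 per 100 kb in genes of 300 kb or longer, against 3.42 in genes of 200 to 300 kb. Other steps did change place without their longest gene: the linker step had 7.48 per 100 kb with Xylt1 and 2.92 without it, and the endosulphatases 5.58 with Sulf1 and 12.2 without it.

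**Figure D3:**
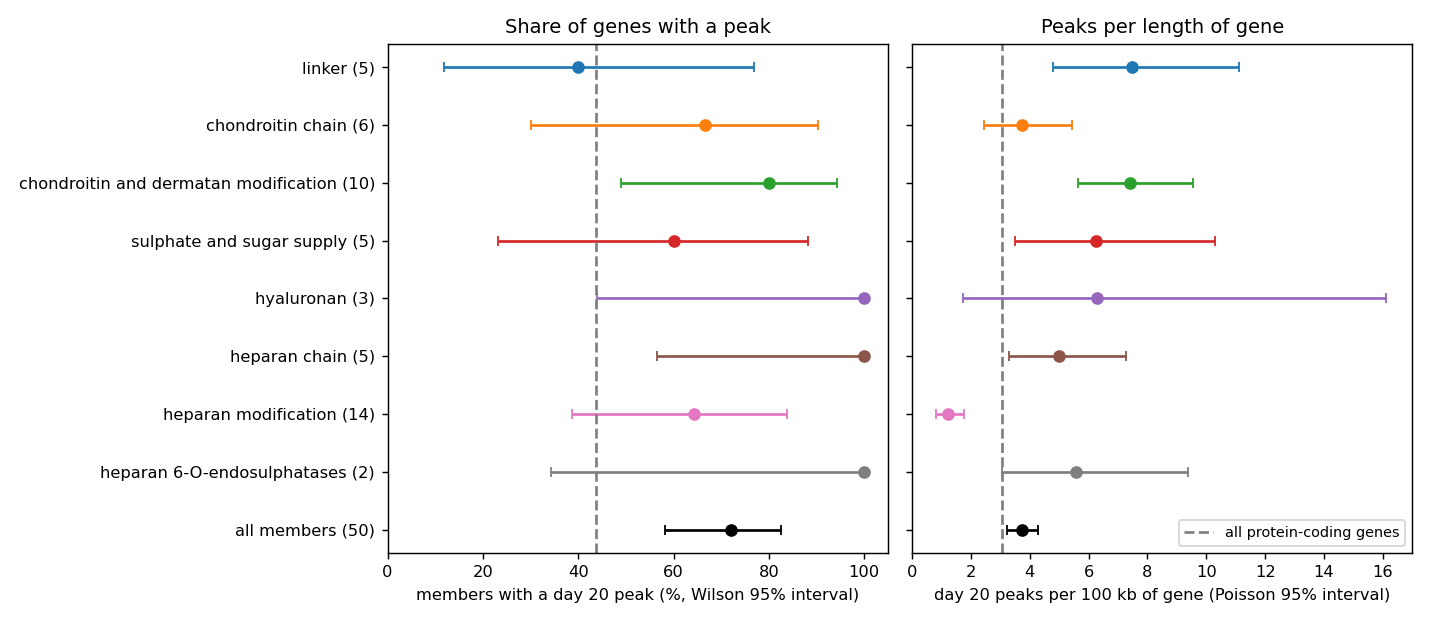
Left, share of members with a day 20 peak by step, with Wilson 95% intervals; right, day 20 peaks per 100 kb of gene, with Poisson 95% intervals. Numbers of members are in brackets and dashed lines mark all protein-coding genes (43.8% and 3.07 per 100 kb). Heparan modification, at 1.23 per 100 kb, is the step whose density interval lies wholly below the line. Density intervals take each peak as independent and are too narrow as a statement about genes.

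Within the heparan modifiers, 3 genes carried most of the peaks. Hs2st1, the only heparan 2-O-sulphotransferase, held 9 day 20 peaks in 141 kb. Hs6st1, a 6-O-sulphotransferase, held 5 in 38.0 kb, which is 13.1 per 100 kb and the densest of the step. Hs3st3a1, a 3-O-sulphotransferase, held 5 in 87.5 kb. The other 6-O-sulphotransferases held 4 in 295 kb (Hs6st2, on the X chromosome) and 3 in 732 kb (Hs6st3), which is 1.36 and 0.410 per 100 kb.

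The N-sulphotransferases and most 3-O-sulphotransferases held 1 day 20 peak or 0. Ndst1 and Ndst3 held 1 day 20 peak each, in 64.5 and 165 kb, and Ndst2 and Ndst4 held 0, in 10.8 and 324 kb. Of the 3-O-sulphotransferases, Hs3st1 held 1 in 31.7 kb, and Hs3st2, Hs3st3b1 and Hs3st5 held 0, in 110, 37.6 and 328 kb. The median gene of 10 to 20 kb held 0 and that of 20 to 50 kb held 1, the counts of Ndst2 and Hs3st1. Medians were 2 in genes of 50 to 100 kb and 4 in genes of 100 to 200 kb. Of genes of 300 kb or longer, 71.3% had a day 20 peak, so the long genes Ndst4 and Hs3st5 are in the minority. Glce, the epimerase that makes iduronic acid, held 1 by annotation, but 3 day 20 peaks overlapped its gene and 2 of them had no symbol.

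The extracellular endosulphatases, which remove 6-O-sulphate from finished heparan chains, both had day 20 peaks, against 43.8% of all protein-coding genes. In their length classes 71.7% (Sulf2) and 81.7% (Sulf1) of genes had one. Sulf2 held 10 in 81.8 kb on chromosome 2 (166073899 to 166155683), or 12.2 per 100 kb, and 1 day 0 peak. Sulf1 held 4 in 169 kb, or 2.37 per 100 kb, and no day 0 peak, although 1 without a symbol lay 47.3 kb away. The day 0 peak of Sulf2, 130 bp from 166103119 to 166103248, lay inside the widest day 20 peak of any member, 2921 bp from 166101648 to 166104568.

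The members held 4 day 0 peaks in 3 genes, and 2 of the 4 were shared with day 20, against 49.5% of all day 0 peaks. In both cases the day 20 peak over them was the widest of its gene. Among all 97 shared day 20 peaks in protein-coding genes with 10 or more day 20 peaks, 10 were the widest of their gene (10.3%). With 2 members this is a description only.

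**Figure D4:**
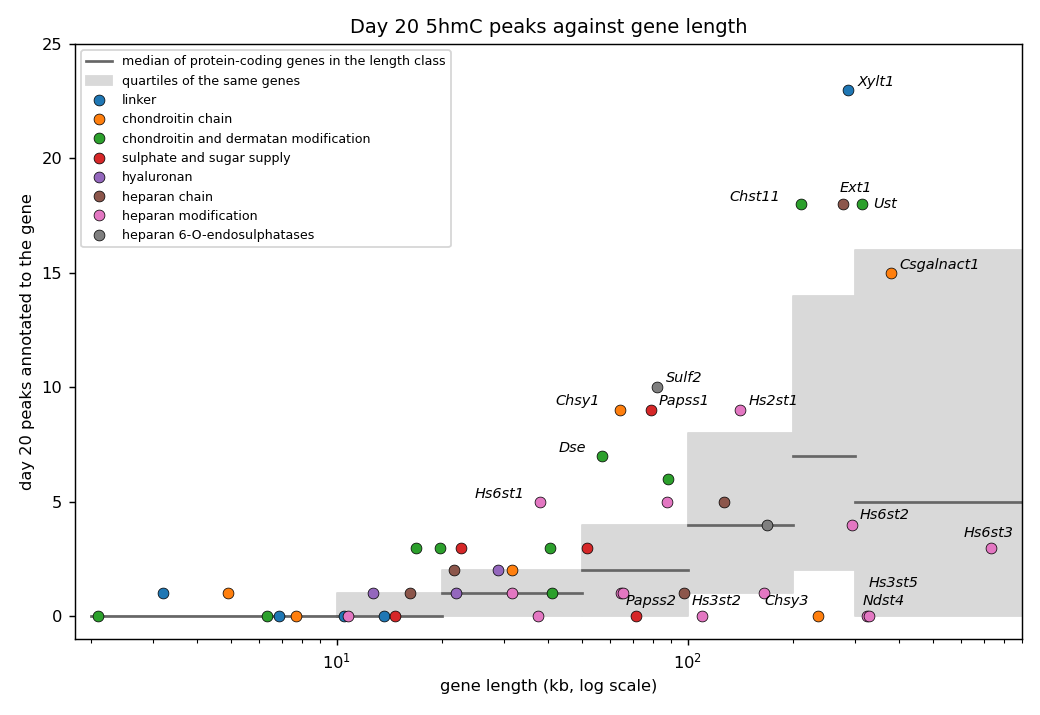
Day 20 peaks per member against gene length on a log axis, coloured by step. Grey lines and bands give the median and quartiles of all protein-coding genes in 7 length classes. Xylt1, Chst11, Ext1 and Ust lie above the band of their class, while Chsy3 lies below and Ndst4 and Hs3st5 lie at 0.

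Members of like length differed widely. Of the 10 members of 200 kb or longer, 5 held 15 or more day 20 peaks and 5 held 4 or fewer. Among all 990 protein-coding genes of that length, 24.5% held 15 or more and 44.5% held 4 or fewer, with a median of 6. The members with 15 or more, Xylt1, Chst11, Ust, Ext1 and Csgalnact1, held 92 of the 200 day 20 peaks (46.0%). With Sulf2, 6 of the 50 held 10 or more (12.0%), against 3.04% of all protein-coding genes, and 1.37% of those held 15 or more. The rank correlation of peak number with gene length was 0.49 over the 50 members and 0.55 over all protein-coding genes, a description in which all points share 1 list.

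Counts within a length class rest on few members and carry no test. In genes of 20 to 50 kb, 9 of 10 members had a day 20 peak, against 54.9%, and in genes of 50 to 100 kb 10 of 11 did, against 71.7%. Peak density in those classes was 6.34 and 6.44 per 100 kb over members, against 3.52 and 3.50 over all protein-coding genes. In genes of 100 to 200 kb 4 of 5 members had a day 20 peak, against 81.7%, and density was 2.67 per 100 kb over members, against 3.60 over all genes.

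The 14 members without a day 20 row were of all lengths, and most were short. Shorter than 20 kb were 8, namely Xylt2, B4galt7, B3gat3, Chpf2, Chst14, Dsel, Slc26a2 and Ndst2. Longer than 200 kb were 3, Chsy3, Ndst4 and Hs3st5, and between them stood Papss2, Hs3st2 and Hs3st3b1. Within 50 kb, 8 of the 14 had a day 20 peak. The other 6, B4galt7, Chsy3, Dsel, Ndst4, Hs3st2 and Hs3st5, had none. Those 6 are 12.0% of the 50 members, against 24.4% of all protein-coding genes with no day 20 peak that near. Within 500 kb, Chsy3, Dsel and Ndst4 had none, which is 6.0% of the 50 members, against 8.83% of all protein-coding genes.

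Peak width differed between steps. Over all members the median day 20 width was 599 bp, against 601 bp for other peaks on protein-coding genes. Among chondroitin and dermatan modifiers it was 754 bp, and 15 of their 59 peaks were 1000 bp or wider (25.4%, 16.1 to 37.8%), against 13.8% of peaks on protein-coding genes. The endosulphatases had the widest median, 837 bp, and 6 of their 14 peaks reached that width (42.9%, 21.4 to 67.4%), all on Sulf2. In the linker step 4 of 24 did (16.7%, 6.68 to 35.9%), and in the heparan chain step 4 of 27 (14.8%, 5.92 to 32.5%). Among chondroitin chain genes the median was 485 bp and 1 of 27 reached that width (3.70%, 0.657 to 18.3%). Among heparan modifiers the median was 521 bp and 1 of 30 did (3.33%, 0.591 to 16.7%). Peaks of 1 gene share their source, so these intervals are too narrow as a statement about genes.

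The 32 day 20 peaks of 1000 bp or wider lay on 13 members, with 7 on Chst11, 6 on Sulf2 and 4 on Xylt1. Chst3, Chst12, Ust, Ext1 and Ext2 held 2 each, and Chsy1, Chst13, Chst15, Ugdh and Hs2st1 held 1 each. Chst11 had a median width of 902 bp over its 18 peaks, and Sulf2 had 1082 bp over its 10. Among the 665 protein-coding genes with 10 or more day 20 peaks, whose own medians centred on 630 bp, they ranked 44 and 15 by median width. Ust, with as many peaks as Chst11, had a median of 628 bp, and Ext1 524 bp. Chst3 had 3 peaks, of 754, 1208 and 2297 bp, and those of Chst12 were 894 to 1191 bp wide. The 4 day 0 peaks were 117, 130, 138 and 223 bp wide.

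**Figure D5:**
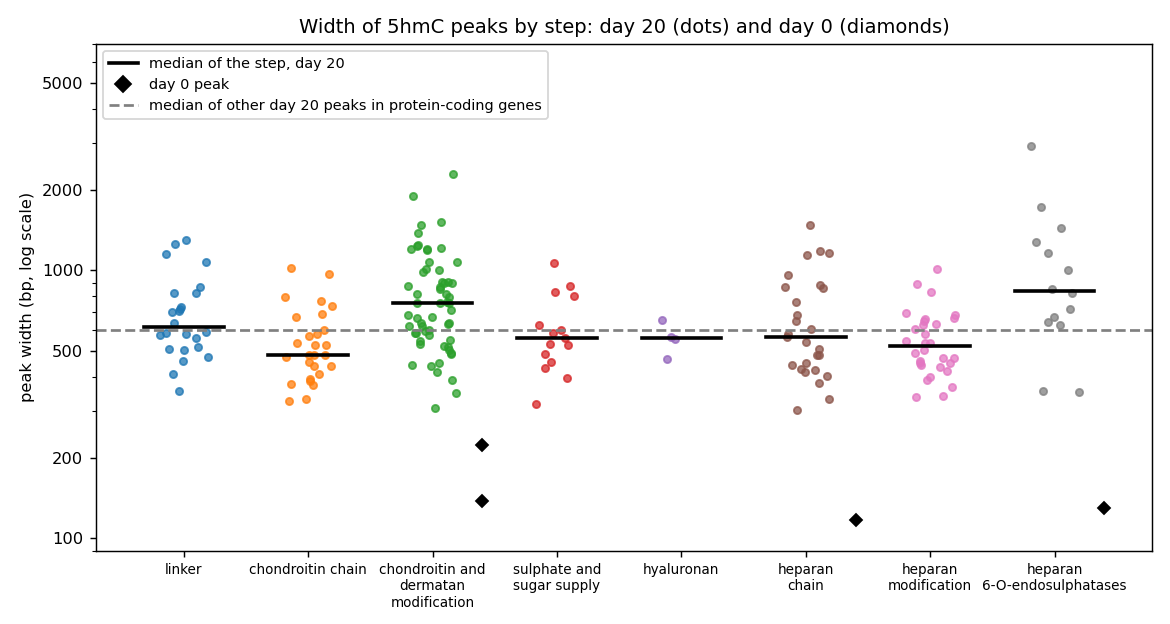
Width in bp, on a log axis, of each day 20 peak (dots) and day 0 peak (diamonds) on members, by step. Black bars are medians of day 20 peaks, and the dashed line is the median of other day 20 peaks on protein-coding genes, 601 bp. The endosulphatases and the chondroitin and dermatan modifiers hold the widest, of 2921 and 2297 bp, and the 4 day 0 peaks, of 117 to 223 bp, lie below every day 20 peak.

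Other genes of the pathway, in 4 lists, were counted in the same way. Of 18 genes that break down glycosaminoglycans, 15 had a day 20 peak (83.3%, 60.8 to 94.2%), with 57 peaks, and 43.8% of all protein-coding genes had one. Arsb, the lysosomal 4-sulphatase of chondroitin and dermatan, held 15 in 171 kb, and Cemip, needed for hyaluronan breakdown in human skin fibroblasts, held 14 in 154 kb. Of 14 genes of heparan sulphate core proteins, 12 had a day 20 peak (85.7%), led by Tgfbr3 with 13 and by Col18a1 and Gpc6 with 6 each.

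Synthesis genes outside the 50 had few peaks each. Of 16 further genes of synthesis and supply, 11 had a day 20 peak (68.8%, against 43.8% of all protein-coding genes), led by Pxylp1, the phosphatase that removes phosphate from the linker xylose, with 7. Fam20b, the kinase that adds it, had 0. Hs3st4, a further 3-O-sulphotransferase, had 0 in 417 kb. Of 8 keratan sulphate genes, 5 had a day 20 peak (62.5%), led by B4galt1 with 3 and by Chst1 and Chst5 with 2 each. Over the 4 lists 43 of 56 genes had a day 20 peak (76.8%, 64.2 to 85.9%), an interval that overlaps that of the members. The 56 genes held 2.28 peaks per 100 kb (1.92 to 2.69), against 3.73 (3.23 to 4.28) for the members. All protein-coding genes held 3.07. By list the density was 4.14 for breakdown, 1.25 for core proteins, 2.89 for further synthesis and supply, and 5.65 for keratan sulphate. These Poisson intervals take each peak as independent. A day 0 peak was found in 1 of the 56 (1.79%), Sdc3, a syndecan, a share near the 1.81% of all protein-coding genes.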

How the data were processed

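The data were 2 deposited peak lists from ATDC5 cells, 1 per stage. Per the file headers, the authors kept peaks at 10-fold enrichment after merging each stage's samples, so the deposited values are peak start and end positions in base pairs, with a gene symbol and a transcript accession. Per the submitters' processing notes, the build was GRCm38 (mm10) and the tools included MACS 1.4.2, BWA, cutadapt and FastQC, without saying what each was used for. No height, fold or p-value per peak was used. In the day 20 list 3 of 56698 rows had no readable end and were left out. Positions were read as 1-based and inclusive, which no header states, so widths could be off by 1 bp.

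Members were matched by symbol, and matching by transcript accession gave the same 200 and 4 rows. All genes, and the 4 other lists, were matched by accession and then by symbol, since 30 of the 140 rows of those lists carry an older symbol. Gene positions came from RefSeq (GRCm38.p6). Peaks are shared when they overlap by at least 1 bp. Intervals are 95% Wilson or exact Poisson. No test between stages was possible with 1 merged list each. Every member is named: the rule singled out, per step, the 2 with the most day 20 rows and the densest, all with a day 0 row and all without a day 20 row, and the rest were added for completeness. The members, steps, lists and rule were chosen with earlier results of these data known. Assignment and overlap steps were tested on simulated data. Alternatives covered peak assignment, merging within 1 kb, width, list size, overlap and the longest member of a step. Counts and figures were made in Python 3.11.15. The packages were scipy 1.17.1, pandas 2.3.3, numpy 2.4.6 and matplotlib 3.10.9.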

Additional observations from a re-analysis of the deposited data

How the results depend on the processing

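The counts of members with a peak, of peaks on members and of shared peaks, the shares and densities by step and the counts of the other lists stayed within 1.5 times the reported value, or within its interval, when peaks were assigned by position in the gene, with 5 kb on both sides or by midpoint, merged within 1 kb, or called shared by overlap of at least 50% of the narrower peak or within 1 kb, each where it was run. With gene bodies 35 members had a day 20 peak, against 40.5% of all protein-coding genes, and with 5 kb on both sides 39 did, against 50.8%. With peaks at least as wide as the median of their list, members held 103 day 20 and 2 day 0 peaks, and 1 member had a day 0 peak. With the 1050 widest day 20 peaks, as many as the day 0 list holds, 3 members (Sulf2, Chst3 and Chst11) held 4 peaks, against 3 members and 4 peaks at day 0. Both of these alternatives hold fewer peaks by construction. Without the longest member of a step, a setting chosen after seeing the data, peak density was 2.92 per 100 kb in the linker step, without Xylt1, and 12.2 per 100 kb in the endosulphatases, without Sulf1. No paired analysis was possible because each stage was deposited as 1 merged list, and for the same reason no replicate could be left out.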
